A study of Drosophila melanogaster with 3 samples.

Results

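The genes described here encode the proteins of the small (40S) subunit of the cytoplasmic ribosome of Drosophila melanogaster. They were chosen by name, as the protein-coding genes of the dm6 annotation whose symbol starts with RpS, together with sta, which encodes the subunit's laminin-receptor-like protein. This gave 39 genes of the 13945 protein-coding genes on the 6 chromosome arms. Sequencing of immunoprecipitated chromatin (ChIP-seq) was used to map eyegone (eyg), a Pax-family transcription factor with a homeodomain, whose C-terminus carried a green fluorescent protein (GFP) tag in a stable transgenic line. The chromatin came from whole embryos collected over 0 to 24 h, males and females together, was sheared by sonication to 200 to 800 bp, and was enriched with an anti-GFP antibody. The 3 biological replicates form 1 group, with no second genotype, treatment or stage, and the authors' control library was not analysed here. All samples came from 1 transgenic line, so an effect of the line or of the tag cannot be told apart from binding of eyg, and in whole embryos the cell type behind a signal cannot be told apart either.

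Ribosomal protein genes are transcribed in nearly all growing cells, and their products are made in matched amounts. In flies many of them are Minute genes, whose loss of 1 copy slows development and thins the bristles. Their promoters are known for an initiator rich in pyrimidines, the TCT motif, which takes the place of the usual initiator. The small subunit itself has a head, a body and a platform, and it reads the codons of the messenger RNA while the large subunit joins the amino acids.

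Most small-subunit genes carried a site of the tagged protein. A site here means a region of the authors' optimal list (2537 regions that their replicate-comparison step kept), and a gene carried it when the summit lay within 1 kb of an annotated transcription start site (TSS). Such a site was found at 28 of the 39 genes, which is 71.8%, while 14.7% of all protein-coding genes carried one. Each of the 3 replicates had one of its 2537 highest calls within 1 kb of 22 of the 39 genes (56.4%), against 9.51% of all genes. These calls need not be the same region in each replicate. Regions of the longer pooled candidate list, which includes background by its authors' intent, lay near 38 of the 39 genes (97.4%), against 56.4% of all genes. The 11 genes without a site included RpS2, RpS3, RpS9, RpS10a, RpS13, RpS15Ab, RpS26 and RpS28-like.

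The sites were frequent but their signal was not unusually high. The signal is the authors' value for a region, on a scale they do not state, and the depth of the libraries is unknown because the files hold no read counts. Over the 28 genes with a site the strongest site had a median signal of 175.4, with a range of 112.2 to 820.5. Over all 2049 genes with a site the median was 166.4. The median percentile of the small-subunit sites among the optimal regions was 57.9, and it was 55.6 for all genes with a site. Of the 28 sites, 14 were in the upper part of the optimal list when it was divided at its median signal of 156.2.

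**Figure D1:**
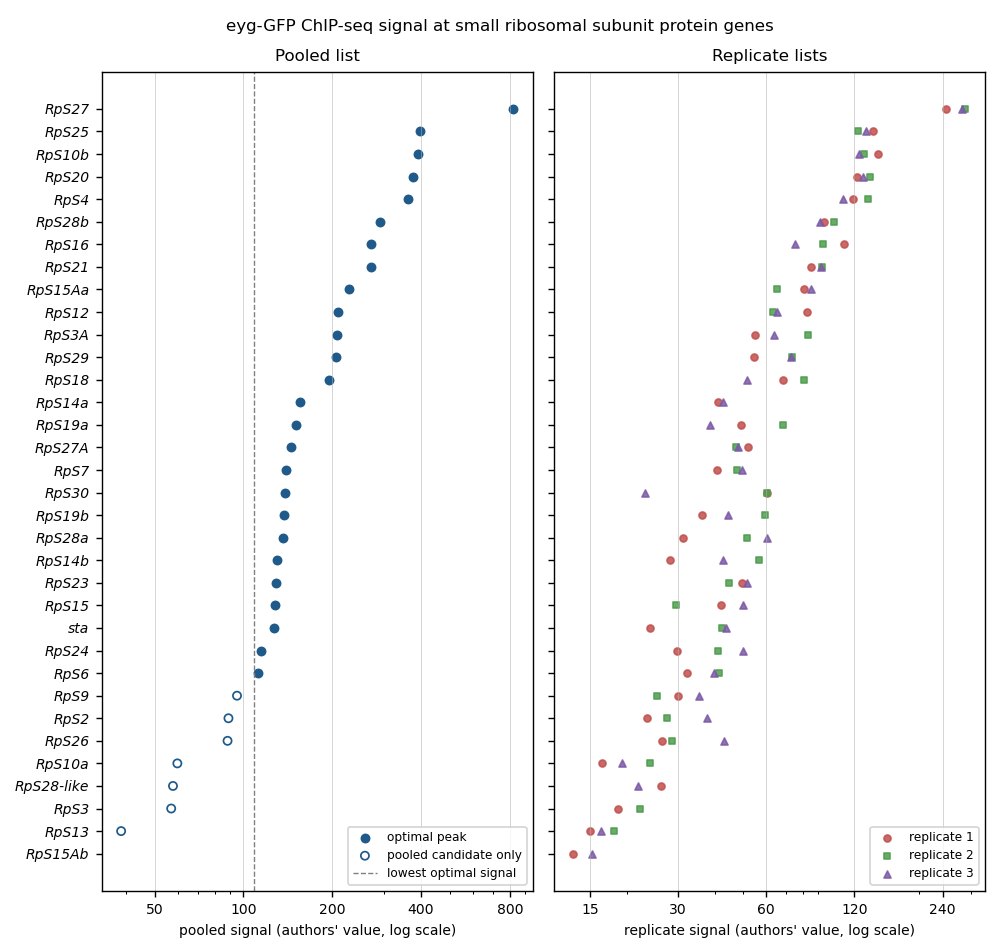
Signal of the region within 1 kb of each small-subunit gene reported by name, on log axes, in the pooled list (left; filled circles are optimal regions, open circles are candidates only, the dashed line is the lowest optimal signal) and in the 3 replicate lists (right). RpS27 stood at 820.5 in the pool and above every other small-subunit gene in each replicate, and the open circles run from RpS9 at 95.13 down to RpS13 at 38.51.

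The 3 replicates placed similar numbers of small-subunit genes among their highest calls. Within 1 kb of 26 genes (66.7%) in replicate 1, 28 (71.8%) in replicate 2 and 26 (66.7%) in replicate 3 there was one of the 2537 highest calls, which averages 68.4% ± 2.96 (SD, n = 3). The same shares of all genes were 14.6%, 14.4% and 15%, or 14.7% ± 0.353 (SD, n = 3). The share of the small-subunit genes was thus above that of all genes in each replicate. The SD is between libraries scored on the same genes, so it does not measure the uncertainty of a share of 39 genes. No test was made because the genes were chosen with earlier results known. Of the 39 genes, 22 had such a call in 3 replicates, 5 in 2, 4 in 1 and 8 in none. All 22 had an optimal site. Such calls could lie anywhere within 1 kb, and not always at the same region in each replicate. For 19 of the 28 genes with a site, the call over the strongest summit was itself among the 2537 highest in all 3 replicates. RpS14a, RpS15 and RpS28a were among the 22 genes but not among these 19.

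The order of the sites by signal was alike in the replicates. Across the small-subunit sites Spearman's rank correlation was 0.86 between replicates 1 and 2 (n = 27), 0.82 between replicates 1 and 3 (n = 28) and 0.74 between replicates 2 and 3 (n = 27). Across all optimal regions it was 0.65, 0.65 and 0.68. These points share their libraries and antibody, and sites are not independent replicates. The median signal of the small-subunit sites was 54.66 in replicate 1, 63.31 in replicate 2 and 55.96 in replicate 3, where the medians of all optimal regions were 45.35, 57.01 and 61.51. The ratio of these medians was therefore above 1 in replicates 1 and 2 and below 1, at 0.910, in replicate 3 (mean 1.08 ± 0.151, SD, n = 3).

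Genes of the head of the subunit carried a site in 14 of 19 cases (73.7%), with a median signal of 207.7. RpS25, whose protein sits near the exit site of the transfer RNA and is known for its need in some internal initiation, had the strongest of them at chr3R:11216254-11216395. Its signal was 138.6, 123.0 and 131.3 in replicates 1, 2 and 3 and 395.7 in the pool. RpS10b, whose protein lies at the tip of the head, had 144.6, 129.7 and 124.3 in the replicates and 390.6 in the pool at chrX:19597781-19598204. RpS20, which encodes another head protein, had 122.2, 135.7 and 128.3 in the replicates and 375.2 in the pool at chr3R:20821967-20822132. These 3 genes had overlapping replicate values, so the order among them is within their spread. Their mean percentile among the optimal regions was 92.3 ± 3.30 for RpS25, 92.6 ± 3.83 for RpS10b and 92.7 ± 2.87 for RpS20 (SD, n = 3).

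A lower tier of head genes followed. RpS28b, whose small protein lies near the exit site, had 94.35, 101.9 and 91.72 in the replicates and 289.6 in the pool at chrX:9554397-9554820. RpS16, whose C-terminal tail reaches the transfer RNA in the peptidyl site, had 110.1, 93.80 and 75.43 and a pooled signal of 270.3 at chr2R:22605890-22606313. RpS16 was thus highest in replicate 1 and lowest in replicate 3, and its values reached those of RpS28b. RpS12, known in flies for its part in the elimination of cells with a Minute mutation, had a pooled signal of 208.8, RpS29 had 206.6 and RpS18 had 195.3. RpS18 varied more than the others, at 68.36, 80.69 and 51.52 in the replicates, with a mean percentile of 62.5 ± 25.1 (SD, n = 3).

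Lower pooled signals, from 128.3 to 151.0, were found at the head genes RpS19a, RpS27A, RpS19b, RpS28a and RpS15. RpS27A, which is translated as a fusion with ubiquitin and so also supplies ubiquitin, had 51.83, 47.31 and 47.92 in the replicates and 144.5 in the pool. Its TSS is annotated at the same base as that of Ip259, so its site at chr2L:10408066-10408489 cannot be given to either gene alone. RpS15, a head protein near the contact with the large subunit, had a pair of regions of nearly equal pooled signal, 128.3 and 126.9. The weaker one lay 77 bp from its TSS, and the stronger one lay 588 bp upstream and closer to CG4927.

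Genes of the body and platform carried a site in 14 of 20 cases (70.0%), a share close to that of the head. Their median signal was lower, at 140.3, and 9 of them had one of the highest calls in all 3 replicates, against 13 of the 19 head genes. RpS27, which encodes a zinc-finger protein of the platform side, had the strongest site of all small-subunit genes at chr3R:25247379-25247645. Its signal was 246.5, 287.1 and 279.3 in the replicates and 820.5 in the pool, which ranked 31 of the 2537 optimal regions. No other small-subunit gene reached these values in any replicate. A second region at RpS27, at chr3R:25247499-25247922, had a pooled signal of 153.9 and was closer to Nup37, a nuclear pore gene transcribed away from RpS27.

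RpS4, a protein of the body, had 118.5, 133.4 and 109.8 in the replicates and 362.0 in the pool at chr3L:13041708-13041865. Its summit fell on the TSS itself. RpS21, a small protein at the platform that binds the sta protein, had 85.47, 93.31 and 92.38 and a pooled signal of 270.0 at chr2L:2855877-2856300. RpS15Aa had 80.45, 65.35 and 85.31 and a pooled signal of 227.1 at chrX:13337429-13337852. These 3 genes and RpS3A, a platform protein with 208.3 in the pool, were the only other body or platform genes with a pooled signal above 200.

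The other 9 body and platform genes with a site had pooled signals from 112.2 to 155.4. RpS14a and RpS14b, RpS7, RpS30, RpS23, sta, RpS24 and RpS6 were in this group. RpS30, which is made as a fusion with a ubiquitin-like protein, had 60.12 and 60.17 in replicates 1 and 2 but 23.11 in replicate 3. Replicate 3 ranked it 8342 of its calls, so that site rests on the other 2 libraries. RpS23, a protein of the decoding centre, had values of 49.73, 44.65 and 51.53, with a mean percentile of 39.5 ± 17.4 (SD, n = 3). For sta the signal was 24.03 in replicate 1 against 42.36 and 43.64 in replicates 2 and 3. RpS14b was likewise lowest in replicate 1, at 28.17 against 56.42 and 42.51.

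RpS6, the body protein that S6 kinase phosphorylates, had the weakest site. Its signal was 32.26, 41.35 and 39.80 in the replicates and 112.2 in the pool at chrX:7901070-7901493. The TSS of bys, a gene for an assembly factor of the small subunit, also lay within 1 kb of this site. The next 2 above it were RpS24, with 29.81, 41.16 and 49.92 in the replicates and 114.4 in the pool, and sta, with 127.2. Just outside the list were RpS9, with a pooled candidate of 95.13, RpS2, with 88.99, and RpS26, with 88.35. The lowest signal anywhere in the optimal list was 108.3. The 2 ubiquitin-type fusions both had a site. In the proteins of messenger RNA entry and decoding a site was found at 2 of 5 genes, RpS23 and RpS30, and in those of the exit channel and platform at 6 of 9.

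Most of the 11 genes without a site were also low in the replicates, with exceptions in single libraries. RpS9, a body protein at the messenger RNA entry, had candidates of 30.01, 25.41 and 35.45 in replicates 1, 2 and 3. RpS2, an entry protein known in flies as string of pearls, had 23.49, 27.37 and 37.53. RpS26, a protein of the messenger RNA exit channel, had 26.5, 28.5 and 43.09, and replicate 3 placed it among its highest calls at rank 2417.

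RpS3, RpS13 and RpS28-like were low wherever they were listed. RpS3, the entry protein with a second reported role in DNA repair, had candidates of 18.65 and 22.29 in replicates 1 and 2. RpS13, a body protein, had 15.04, 18.16 and 16.36, and its pooled candidate of 38.51 ranked 22460 of 23721. RpS28-like had 26.26 and 21.94 in replicates 1 and 3, and the pooled candidate, of 57.72, lay 842 bp from its TSS. None of these 3 genes had one of the highest calls of any replicate. Optimal regions farther than 1 kb but within 2 kb lay at RpS9, with a signal of 121.4 at 1699 bp, and at RpS13, with 156.8 at 1978 bp.

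Genes that exist as a pair of paralogs often differed within the pair. In several such fly pairs 1 copy is expressed broadly and the other mainly in the germ line, which is background and was not measured here. For RpS10 and RpS15A the site lay at 1 copy only. RpS10b had 390.6, while RpS10a had a candidate of 59.72 and replicate values of 16.45, 24.1 and 19.31. RpS15Aa had 227.1, while RpS15Ab had no pooled candidate and values of 13.16 and 15.23 in replicates 1 and 3. In both pairs the replicate values of the copies did not overlap.

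In 3 further pairs both copies carried a site by the 1 kb rule. RpS19a had its summit 7 bp upstream of its TSS, with 49.04, 68.22 and 38.54 in the replicates and 151.0 in the pool. RpS19b had 36.10, 59.19 and 44.56 and a pooled signal of 137.1, but that summit was 876 bp upstream of its TSS and closer to CG5854. RpS28b, with 289.6, had its summit 14 bp upstream of the TSS, whereas RpS28a had 136.7 at 491 bp downstream and closer to Mgat2. The RpS28a values of 31.12, 51.45 and 60.38 were all below those of RpS28b. Neither RpS19b nor RpS28a had a pooled candidate within 100 bp of its TSS. The genes RpS14a and RpS14b, which encode the same platform protein, lie next to each other on the X chromosome, with regions at both. RpS14b had a pooled signal of 130.0. RpS14a had 2 overlapping regions. The one nearer to Dhdds had 41.16 and 42.51 in replicates 1 and 3, no call over its summit in replicate 2, and 155.4 in the pool. The second region of RpS14a had its summit 31 bp upstream of the TSS. It had 79.28 and 42.16 in replicates 2 and 3, no call over its summit in replicate 1, and 133.5 in the pool. The calls of replicate 1, at chrX:7933300-7933709, and of replicate 2, at chrX:7933495-7933914, each overlapped both regions but held only 1 of the summits. None of the 50-base words in the sites, or in the promoter windows of the genes without a site, occurred again as an exact copy on the 6 arms. Whether copies shared reads was not tested.

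The summits sat close to the start of transcription. The median distance from the nearest annotated TSS of the gene was 26.5 bp over the 28 genes, against 162 bp over all 2049 genes with a site. It was 60 bp when the 5′ end of the gene was taken as its only TSS. When the distance was instead averaged over the summits of the replicate calls, the median was 44.8 bp without replicate 1, 42.5 bp without replicate 2 and 27.0 bp without replicate 3. Within 30 bp lay 16 of the 28 summits (57.1%), against 10.5%, and 22 of the 28 strongest summits (78.6%) lay within 100 bp, against 32.4%. Counting every region, a summit within 100 bp was found at 24 of the 39 genes (61.5%), against 5.18% of all genes. Summits upstream of the TSS made up 18 of 28 (64.3%), and 80.6% over all genes with a site. By the annotation of any gene, the strongest summit lay in a 5′ UTR for 14 genes, between genes for 13 and in an intron for 1. At RpS28a (5′ UTR) and RpS19b (intron) the summit lay outside the gene itself, so the feature belongs to another gene.

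**Figure D2:**
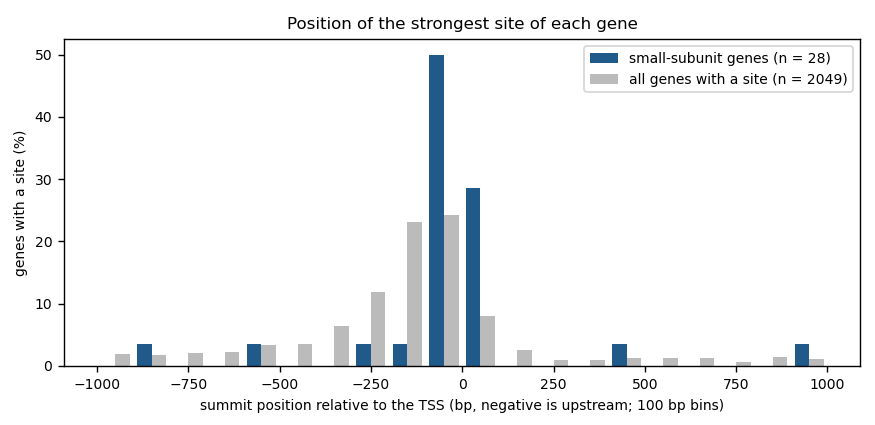
Distribution of the offset of the strongest summit from the TSS, in bins of 100 bp, as a share of the 28 small-subunit genes with a site and of all 2049 genes with a site. The small-subunit summits pile up beside the TSS, with a median offset of -18.5 bp, while those of all genes spread further upstream, with a median of -126 bp.

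Neighbouring genes limit how surely a site can be given to a ribosomal protein gene. The nearest protein-coding TSS was the gene's own for a region at 25 of the 39 genes (64.1%), against 10.6% of all genes. The exceptions among genes with a site were RpS19b, RpS28a and RpS24, whose region lay 952 bp from its TSS and closer to CG3732. RpS24 also had a pooled candidate of 78.82 at 90 bp, below the optimal list. Another protein-coding gene started within 1 kb of 25 of the 39 genes (64.1%), against 42.9% of all genes. In 22 of these 25 cases the nearest neighbour was transcribed in the opposite direction, away from the ribosomal protein gene. This is 56.4% of the 39 genes, against 33.2% of all genes. Over all genes it was so for 4630 of the 5985 with a neighbour within 1 kb, so the arrangement was also the usual one there. For 7 genes the site had no other protein-coding TSS within 1 kb, namely RpS10b, RpS4, RpS3A, RpS29, RpS30, RpS14b and RpS23. Of the 14 small-subunit genes that stand alone, more than 1 kb from the TSS of any other protein-coding gene, 7 carried a site, against 8.99% of the 7960 such genes in the annotation. These 7 are not the same set, as they include RpS24, whose region is closer to CG3732, and leave out RpS14b.

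The sites were spread over all arms, and every small-subunit gene of the X chromosome had one. On X this was 9 of 9 genes, against 13.0% of all X genes. On 3R it was 9 of 12, on 2R 5 of 7, on 3L 2 of 4 and on 2L 2 of 6, and the single gene on chromosome 4, RpS3A, had one too. The shares over all genes of these arms ran from 8.75% to 16%. The arms hold few small-subunit genes each and no test was made.

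Genes of the large subunit had sites about as often, and those of the mitochondrial ribosome did not. Of the 54 RpL genes, whose products form the large (60S) subunit, 40 (74.1%) carried a site. Their median signal of 254.1 was higher than the 175.4 of the small-subunit genes, their median percentile was 81.0, and their median distance from the TSS was 28.5 bp. The highest RpL signal, 534.3 at RpL7, was below that of RpS27. Of the 26 mRpS genes, which encode small-subunit proteins of the mitochondrial ribosome, 5 (19.2%) carried a site, and for 1 of them the nearest TSS was its own. The median signal of these 5 was 125.6, but mRpS10, with 1147, and mRpS23, with 974.2, were above RpS27. Among 11 genes for assembly factors of the small subunit 3 had a site (27.3%), namely Nop56, with 177.9, RIOK1, with 120.9, and bys, whose region is that of RpS6. Rack1, a WD-repeat protein of the subunit's head that is not named RpS, had a site 4 bp from its TSS, with 73.26, 58.95 and 62.61 in the replicates and 195.2 in the pool. The eyg gene itself had a site of 177.0, close to the median of the small-subunit genes. These are descriptions of lists of unequal length, and no list was tested against another.

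**Figure D3:**
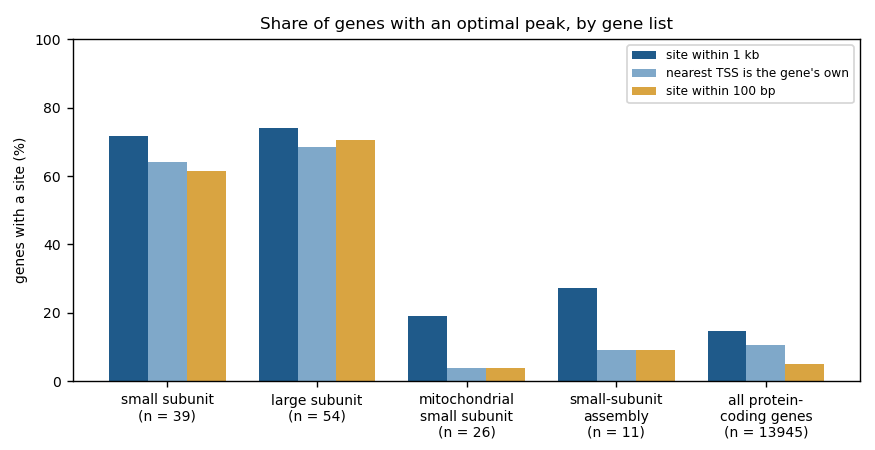
Share of the genes of each list with an optimal region, in percent, by 3 rules (summit within 1 kb of a TSS, nearest protein-coding TSS the gene's own, summit within 100 bp). By the rule of 1 kb the small-subunit genes stand at 71.8% and the large-subunit genes at 74.1%, above the mitochondrial small-subunit genes at 19.2%, the assembly factors at 27.3% and all protein-coding genes at 14.7%.

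Short sequence words were then counted in the promoters, from 250 bases before to 50 bases after the TSS. For a gene with a site this TSS was the one nearest its strongest summit, and for any other gene the 5′ end. Groups with and without a site thus differ in this choice as well. The same TSS was used for the counts at the start of transcription below. The words were TATCGATA (the DNA replication-related element, bound by the factor DREF), GGTCACACT (motif 1 of core promoters), CAGCTGTT (an E box), TAATTA (a core that homeodomains bind), GAGAG (the GAGA element) and TATAAA (the TATA box). All were searched on both strands, and none of these words contains another. TATCGATA occurred in 12 of the 39 promoters (30.8%), against 9.17% of all promoters. It was found in 10 of the 28 with a site and in 2 of the 11 without. Over all 2049 genes with a site the share was 11.9%. In promoters of the RpL genes the share was 27.8%, so the word was common to genes of both subunits. Within 100 bp of the strongest summit it was present at 6 of the 28 genes (21.4%), against 4.22% of all optimal regions. The optimal regions include those not near a TSS, so the sets compared also differ in position.

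The 100 bases upstream of the TSS are shown for 5 genes whose window holds TATCGATA and no annotated exon, to show the word in its surroundings. The summit of the strongest region lies inside the stretch at RpS25 and RpS10b only. Capitals mark the word, the strand is that of the gene, and the sequence is that of the RefSeq copy of the dm6 assembly. The windows are chr3R:11216288-11216387 (minus strand) for RpS25, chrX:19597931-19598030 (plus) for RpS10b, chr3L:13023252-13023351 (plus) for RpS12, chrX:7901332-7901431 (minus) for RpS6 and chrX:7933642-7933741 (plus) for RpS14a.
RpS25: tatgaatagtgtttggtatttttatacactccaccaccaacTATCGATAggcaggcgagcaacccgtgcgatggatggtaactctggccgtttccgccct
RpS10b: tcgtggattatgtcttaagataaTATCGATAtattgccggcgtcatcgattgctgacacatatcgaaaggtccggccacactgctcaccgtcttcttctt
RpS12: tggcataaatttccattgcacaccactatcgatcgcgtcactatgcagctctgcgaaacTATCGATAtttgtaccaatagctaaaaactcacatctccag
RpS6: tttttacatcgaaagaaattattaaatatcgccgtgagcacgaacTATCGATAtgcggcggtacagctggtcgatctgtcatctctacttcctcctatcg
RpS14a: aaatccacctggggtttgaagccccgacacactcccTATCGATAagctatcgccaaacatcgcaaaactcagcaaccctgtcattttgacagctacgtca

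The word stood 4 bp from the summit at RpS25, 35 bp at RpS10b, 43 bp at RpS12 and 100 bp at RpS6. At RpS14a it stood 189 bp from the summit of the stronger region and 29 bp from that of the second one. At RpS29 it stood 9 bp from the summit. The genes with the word and a site ran from RpS25 at 395.7 to RpS6 at 112.2, and RpS13 and RpS15Ab held it without a site. RpS24 is counted with a site, but its words stood 997 and 1014 bp from the summit. RpS27, with the strongest site, had no TATCGATA in its promoter. The E box occurred in 1 of the 39 promoters (2.56%), against 7.80% of all and 13.2% over genes with a site. That promoter was the one of RpS27, where the E box stood 17 bp from the summit. A match is a description of letters and not a binding site, and the absence of one says only that the letters are not in the window.

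The homeodomain core TAATTA was found in 12 of the 39 promoters (30.8%), against 20.3% of all. Its share was 25.0% in promoters of the 28 genes with a site and 45.5% in those of the 11 without. It was 20.7% over all genes with a site. Within 100 bp of the strongest summit it was present at 2 of the 28 genes (7.14%), against 13.7% of all optimal regions, which again include those not near a TSS. GAGAG was found in 3 promoters (7.69%), against 30.2% of all, and TATAAA in 19 (48.7%), against 45.5%. GGTCACACT was found in 4 (10.3%), against 5.82%. At least 1 of TATCGATA, GGTCACACT and CAGCTGTT was present in 17 of the 39 promoters (43.6%), against 20.6%.

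**Figure D4:**
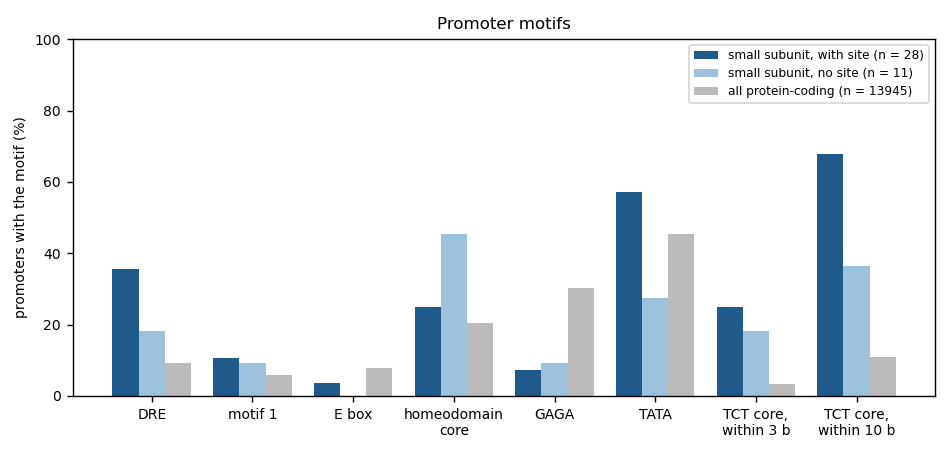
Share of promoters, in percent, that hold each word, for the 28 small-subunit genes with a site, the 11 without and all 13945 protein-coding genes. TATCGATA (DRE in the plot, where the TCT core is CTTT) stands at 35.7%, 18.2% and 9.17% in these groups. The 11 genes without a site are too few for their bars to be read as a difference. The TSS was that nearest the strongest summit for genes with a site and the 5′ end for the others.

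At the start of transcription the small-subunit genes were richer in pyrimidines than all genes, by the median. The first 10 bases of the transcript were C or T in 80.0% of positions in the median small-subunit gene, against 50% in the median of all genes. The letters CTTT, the core of the TCT initiator, began within 3 bases of the TSS, on the gene's strand only, in 9 of the 39 genes (23.1%), against 3.32% of all genes. Within 10 bases, a width chosen after seeing the data, they began in 23 of the 39 (59.0%), against 11%. Among genes with a site alone this was 19 of the 28 (67.9%), against 14.4%. In the RpL genes the shares were 18.5% within 3 bases and 68.5% within 10, so CTTT near the TSS was common to genes of both subunits. Of the 9 genes with CTTT within 3 bases, 7 are shown as 30 bases, 15 before the TSS and 15 from it, because their summits or candidates can be set beside the start they share. Capitals mark CTTT, and the sequence again comes from the RefSeq copy of dm6. The windows are chr3L:13041786-13041815 (plus strand) for RpS4, chrX:13337624-13337653 (minus) for RpS15Aa, chr3R:9778082-9778111 (plus) for RpS29, chr2L:10408337-10408366 (plus) for RpS27A, chr3R:20850582-20850611 (plus) for RpS30, chrX:7901317-7901346 (minus) for RpS6 and chr3R:23358797-23358826 (plus) for RpS3.
RpS4: caccgcccgcaaatctgcCTTTtccttttc
RpS15Aa: tttttccttccgtttccCTTTcttttccct
RpS29: gggtgccatcgctagttcCTTTtcttttcg
RpS27A: cacgctgtgtgtgtgttCTTTctttccttt
RpS30: ttctgcgccatctttCTTTttcgggatccg
RpS6: tacttcctcctatcggtCTTTttcaaccct
RpS3: gcgcgggcacactggcctCTTTcttttctg

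All of those shown except RpS3 had a site, from RpS4 at 362.0 to RpS6 at 112.2. Over all 9 genes, the start with CTTT was seen in 7 of the 28 genes with a site (25.0%) and in 2 of the 11 without (18.2%). The share over all 2049 genes with a site was 4.34%. Most of the strongest sites were at genes outside this set, among them RpS27, RpS25, RpS10b and RpS20. Of the 39 genes, 30 had a pooled candidate with its summit within 100 bp of their own TSS, and 25 of these 30 had an optimal site by the 1 kb rule. The share over all genes is not given here, so the count of 30 cannot be read as an excess.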

How the data were processed

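The 3 replicates were taken from the labels. The authors deposited calls for every replicate and for their pool, and an optimal list thresholded by the irreproducible discovery rate (IDR), per the labels and file listings. Which aligner and caller made them is not given in the sources used here. The signal of each region is the authors' own value, and the deposited −log10 q-values are those of their caller. Both were used as deposited, while the score and p-value columns hold placeholders. The dm3 lists were not used.

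Regions were assigned to TSSs of Ensembl release 115 (BDGP 6.54, dm6) by summit, with Python 3.11.15, pandas 2.3.3, numpy 2.4.6 and scipy 1.17.1, and drawn with matplotlib 3.10.9. The assignment code was tested on simulated data. All 98 annotated start codons checked in the RefSeq sequence read ATG. Replicate values of a site are those of the highest replicate call whose interval holds its summit. N highest calls means as many calls as the optimal list holds. The members, gene lists and words were chosen with earlier results of these data known, so no test was made. Role lists came from general knowledge, and 3 assembly entries (fib, Ltv1 and Mpp10) matched no annotated symbol. Full values were given for the 10 strongest members, the paralog pairs, the members without a site and the 3 on each side of the threshold. Some members that this rule selects are counted but not reported by name here. Neighbours were named only within 1 kb of a site.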

Additional observations from a re-analysis of the deposited data

How the results depend on the processing

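Of 34 alternative values, 23 stayed within the limit set for a change and 11 moved. The count of 28 genes with a site fell to 7 when only regions near 1 protein-coding gene counted, and to 14 with the upper part of the optimal list, divided at the median signal, both of which use fewer regions. It ranged from 21 to 24 when 1 replicate was left out, where a region also had to be among the highest calls of both other replicates. The 22 genes with one of the highest calls in all replicates became 13 when the lists of highest calls were made shorter by a factor of 2, and 22 to 25 without 1 replicate. The median signal of 175.4 rose to 206.6 with the nearest TSS only and to 200.9 within 500 bp, both of which drop genes, and ran from 158.3 to 190.2 without 1 replicate. The median distance of 26.5 bp became 60 bp with only the 5′ end of each gene as TSS, and 27.0 to 44.8 bp (42.5 bp without replicate 2) averaged over the calls of 2 replicates, and the cause was not tested. The count of 17 genes with at least 1 of the 3 words became 8 within 100 bp of the strongest summit, which 28 genes have. For CTTT the count of 9 became 23 within 10 bases and 14 with any annotated TSS, both chosen after seeing the data. The depth of the libraries is unknown, so weak candidates cannot be told from missed sites. No paired analysis was possible because the design has a single group.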
